A study of Mus musculus with 12 samples.

Results

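The hearts of exercised female mice were compared with those of exercised male mice over the autosomal genes, leaving aside the sex chromosomes and the mitochondrial genome. The members are all 6 libraries of the exercised groups, 3 from females and 3 from males, of 12 libraries in the series. Autosomal rows make up 50957 of the 55401 rows of the table, and 15653 of them had enough counts to be tested, of 16213 genes tested in all. Rows dropped were 2585 on the X chromosome, 1562 on the Y chromosome, 37 mitochondrial and 260 without a chromosome in the annotation used. All animals were wild-type (WT) C57BL/6J mice, an inbred strain, and RNA came from bulk heart tissue. Exercised animals of each sex ran on a treadmill at 1 km/hr for 45 min/day, 5 days/week, over 6 weeks. The sedentary females and sedentary males, with 3 libraries each, were age-matched and stayed in the cage. Their age is not given in the sources used here, and neither is whether each library is 1 animal, so a p-value here tells only of the spread among libraries.

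The heart is built of cardiomyocytes, which contract and hold most of its RNA, among fibroblasts that secrete the collagen-rich matrix, vessel cells, macrophages and nerves. Cardiomyocytes draw most of their energy from fatty acids oxidised in mitochondria. Sex steroids and glucocorticoids act through nuclear receptors that bind DNA at response elements, and endurance running is known to enlarge the heart and to alter its use of fuel in both sexes.

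Total counts of the 6 exercised libraries ran from 23074427 to 26304147. Levels below are counts scaled to library size (CPM), and a difference is the log2 of females over males, with its standard error (SE), in which a value above 0 means higher in females. Xist, the X-inactivating RNA, stood at 141 to 177 CPM in the exercised females and at 0.84 to 1.53 CPM in the exercised males, as the labels of sex require. Myh6, the main adult heart myosin of the mouse, lay between 25520 and 30970 CPM in these libraries, so heart muscle was present in each. Female exercised 2 stood apart in what other tissue it held. Its Myl7, the atrial myosin light chain, was 107 CPM, against 0.469 to 2.33 CPM in the other 5. The same library had the highest Sln, an atrial regulator of calcium uptake, at 43.6 CPM, the highest Adipoq, a fat cell hormone, at 10.1 CPM, and the highest alpha globin Hba-a1, at 89.6 CPM. In bulk tissue, fewer cells of a type and less RNA per cell cannot be told apart.

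Few autosomal genes separated the trained sexes past the test. Of the 15653 tested, 15 (0.0958%) passed at an adjusted p under 0.05 by edgeR's quasi-likelihood test, with p-values adjusted by Benjamini-Hochberg over all 16213 genes. There were 9 (0.0575%) higher in females: the matrix genes Lum, Col14a1, Mfap4 and Adamtsl2, the secreted factor Serpinf1, the signalling and membrane genes Gli1, Tmem119 and Pmp22, and the ribosomal protein gene Rpl3. The other 6 (0.0383%) were higher in males: the complement gene C7, the steroid enzyme gene Hsd11b1, the lipid enzyme gene Acsl6, Tmem150c, Cnmd and Sox12. The absolute log2 differences of the 15 ran from 0.45 to 2.30, against a median of 0.12 over all tested autosomal genes and a median SE of 0.14. The 3 female and 3 male levels did not overlap for any of the 15, which held for 14.3% of all tested autosomal genes. An unadjusted p under 0.05 was reached by 1533 genes (9.79%), 739 higher in females and 794 higher in males. The median log2 difference of all tested autosomal genes was 0.0029, and 50.6% of them lay above 0.

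**Figure D1:**
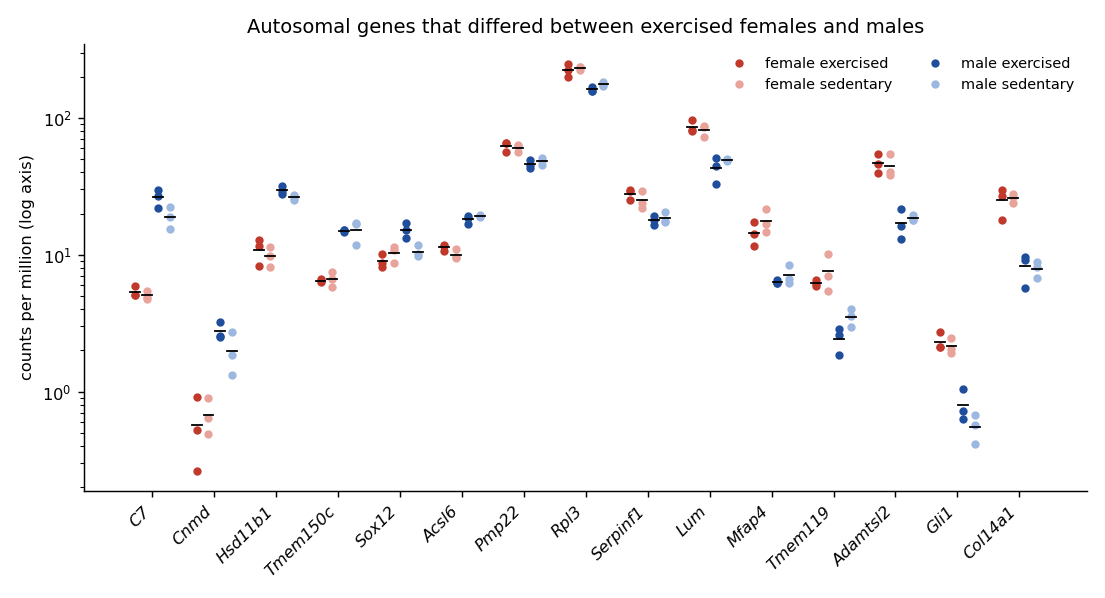
Levels in CPM (log axis) of the 15 autosomal genes that passed the test, for 3 libraries in each of 4 groups; points are libraries and bars are group means. In exercised hearts each gene's female and male points lie apart, from C7 at the left, higher in males, to Col14a1 at the right, higher in females.

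Reference promoter sequence is shown for 3 of the 15, C7 and Hsd11b1 as the pair of smallest p and Adamtsl2 as the gene higher in females with the smallest p among those with an entry. RefSeq windows on GRCm38.p6, from 250 bases before to 50 bases after a transcript's start, were given for 9 of the 15 genes, in 16 windows. Capitals mark GGTCA on either strand, the core of the oestrogen response element. Each is printed 5′ to 3′ on the gene's strand.
C7, chr15:5063724-5064023, minus strand: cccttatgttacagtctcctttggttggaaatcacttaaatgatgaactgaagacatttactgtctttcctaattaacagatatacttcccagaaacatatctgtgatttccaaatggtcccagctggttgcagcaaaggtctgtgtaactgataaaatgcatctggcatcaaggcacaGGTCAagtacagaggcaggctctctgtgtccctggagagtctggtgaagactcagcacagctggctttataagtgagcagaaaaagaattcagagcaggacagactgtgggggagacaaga
Adamtsl2, chr2:27079129-27079428, plus strand: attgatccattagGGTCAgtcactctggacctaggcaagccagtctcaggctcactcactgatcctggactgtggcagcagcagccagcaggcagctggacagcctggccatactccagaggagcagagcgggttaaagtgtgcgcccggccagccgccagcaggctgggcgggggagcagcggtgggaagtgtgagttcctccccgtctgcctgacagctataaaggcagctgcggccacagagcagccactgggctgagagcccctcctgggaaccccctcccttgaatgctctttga
Hsd11b1, chr1:193242311-193242610, minus strand: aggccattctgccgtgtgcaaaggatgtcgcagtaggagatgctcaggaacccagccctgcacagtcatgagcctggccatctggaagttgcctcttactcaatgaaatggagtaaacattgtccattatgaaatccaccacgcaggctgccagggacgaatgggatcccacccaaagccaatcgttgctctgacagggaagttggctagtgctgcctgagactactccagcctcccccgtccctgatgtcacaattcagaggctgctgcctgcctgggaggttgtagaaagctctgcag
The core GGTCA was found in 10 of the 16 windows, against 40.7% of 31396 autosomal windows. By gene, 6 of the 9 had it in at least 1 window. A gene with several windows has more chances to hold it, and no share over all genes was taken. Windows of 1 gene can overlap, and in a pair of the 3 Tmem150c windows the same site is counted in both. It lies in the windows of C7 and Adamtsl2 and not in that of Hsd11b1. The whole oestrogen response element, GGTCA and TGACC set 3 bases apart, was in none of the 16 windows and in 0.0733% of all windows. The element of androgen and glucocorticoid receptors, AGAACA and TGTTCT set 3 bases apart, was in none and in 0.00956% of all, and its core TGTTCT, on either strand, was in 2 windows, those of Cnmd and of Acsl6, against 19% of all. The Gli site GACCACCCA was in none of the 16 and in 0.255% of all. The letters TATAAA, on either strand, were in 2 windows, those of Adamtsl2 and C7, against 13.6% of all. The whole elements hold their cores, so these shares are nested. Letters in a window are a description and say nothing of binding.

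C7, the terminal complement component that helps insert the membrane attack complex, gave the smallest p of all tested autosomal genes (chr15:4988762-5063740 on GRCm38). Its level was 5.08, 5.04 and 5.87 CPM in the exercised females and 22.1, 26.8 and 29.9 CPM in the exercised males. Every male library was above every female library, and the difference was -2.30 (SE 0.15; adjusted p = 9.5e-07 by edgeR's quasi-likelihood test), a 4.92-fold higher level in males. In sedentary hearts C7 was 5.46, 4.75 and 4.91 CPM in females and 18.9, 22.4 and 15.5 CPM in males, a difference of -1.91 (SE 0.15; adjusted p = 1.0e-05 by the same test). The female levels of both conditions thus lie in a span of 4.75 to 5.87 CPM. C7 was counted among 17 tested complement genes, of which 14 lay above 0, with a median of 0.15 (0.24 without male exercised 1), and C7 was the only one past the test. C1ra, a protease that starts the classical pathway, was 24.5, 23.9 and 24.8 CPM in females and 19.6, 17.8 and 18.3 CPM in males, with a difference of 0.39 (SE 0.07; adjusted p = 0.067 by the same test). Cd55, a membrane brake on complement, was 18.9, 20.6 and 18.7 CPM in females and 14.9, 8.51 and 12.7 CPM in males (difference 0.69, SE 0.16; adjusted p = 0.15 by edgeR's quasi-likelihood test). C1ra has a close copy, so its counts are uncertain.

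Hsd11b1, which encodes the enzyme that regenerates active glucocorticoid from its inert form, was the next smallest p (chr1:193221634-193264075). It stood at 12.8, 8.24 and 11.6 CPM in exercised females and at 27.7, 31.7 and 29.4 CPM in exercised males. The groups were far apart, with a difference of -1.44 (SE 0.14; adjusted p = 0.00017 by edgeR's quasi-likelihood test). Sedentary levels were close to the trained ones, at 8.18 to 11.4 CPM in females and 25.3 to 27.5 CPM in males, and the difference there was -1.42. Among 13 tested sex steroid receptor and steroid enzyme genes 7 lay above 0 and 6 below, and Hsd11b1 was the only one past the test. Nr3c1, the glucocorticoid receptor, was 54.8, 71.4 and 67.8 CPM in females and 76.0, 71.8 and 83.3 CPM in males (difference -0.25, SE 0.09; adjusted p = 0.36 by the same test). Esr1, an oestrogen receptor, was low in all 6 libraries, at 0.405 to 0.941 CPM, and its groups overlapped. Of 23 tested glucocorticoid-responsive genes 19 lay above 0, with a median of 0.28 and none past the test. That median was 0.10 without female exercised 1 and 0.46 without female exercised 2. Fkbp5, a chaperone partner induced by glucocorticoid and androgen, was 76.2, 31.6 and 52.4 CPM in females and 25.3, 19.4 and 27.1 CPM in males (difference 1.16, SE 0.30; adjusted p = 0.24 by edgeR's quasi-likelihood test). Its female libraries were all above the males but ranged more than 2-fold among themselves.

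The androgen-responsive list had 17 tested members, 9 above and 8 below 0, and the oestrogen-responsive list had 17, 6 above and 11 below, with none past the test in either. The medians of the lists were 0.03 and -0.03, near the median of all autosomal genes, and each turned sign in 1 of the 16 other settings followed. Igf1, a growth factor in the androgen list, was 8.20, 9.04 and 9.68 CPM in females and 11.7, 11.5 and 11.5 CPM in males (difference -0.37, SE 0.14; adjusted p = 0.40 by edgeR's quasi-likelihood test). Ccn5, a matricellular protein in the oestrogen list, was 3.29, 3.44 and 2.98 CPM in females and 5.35, 4.82 and 9.03 CPM in males (difference -0.98, SE 0.28; adjusted p = 0.25 by the same test). Neither gene's groups overlapped, and neither passed. In the androgen list the groups did not overlap for 2 genes with females above and 3 with females below. In the oestrogen list this held for 1 gene with females above and 1 with females below. Of all tested autosomal genes 14.3% did not overlap.

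Of the other genes higher in males, Acsl6, an acyl-CoA synthetase of long-chain fatty acids (chr11:54303798-54364756), was 11.6, 11.7 and 10.7 CPM in exercised females and 19.1, 18.5 and 16.9 CPM in exercised males. The difference was -0.68 (SE 0.09; adjusted p = 0.0046 by edgeR's quasi-likelihood test) and was -0.94 in sedentary hearts. Tmem150c, a membrane protein gene (chr5:100077872-100159808), had the tightest replicates of the 15, at 6.33, 6.44 and 6.67 CPM in females and 14.6, 15.1 and 15.2 CPM in males. Its difference was -1.20 (SE 0.14; adjusted p = 0.00078 by the same test), and the sedentary one was -1.20 as well. Cnmd, chondromodulin, a secreted inhibitor of vessel growth known from cartilage and valves (chr14:79637690-79662170), was near the lower limit of the assay, at 0.916, 0.520 and 0.264 CPM in females and 3.22, 2.57 and 2.51 CPM in males. The difference was -2.29 (SE 0.39; adjusted p = 0.029 by edgeR's quasi-likelihood test). In sedentary hearts it was -1.52, with an adjusted p of 0.057 by the same test.

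Sox12, a SoxC transcription factor gene (chr2:152393611-152398063), was the only one of the 15 with almost no sex difference in sedentary hearts. Exercised females had 8.12, 10.1 and 8.70 CPM and exercised males 15.3, 16.97 and 13.2 CPM, a difference of -0.75 (SE 0.14; adjusted p = 0.044 by edgeR's quasi-likelihood test). Sedentary females had 10.9, 11.3 and 8.71 CPM and sedentary males 11.7, 9.85 and 10.1 CPM, so that these groups overlapped, with a difference of -0.03. The change of the difference from sedentary to exercised hearts was -0.72 (SE 0.19), and it did not pass (adjusted p = 0.93 by the same test). Its difference in exercised hearts also lost its call in 9 of 12 fits that each left out 1 library.

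Among the genes higher in females, matrix genes came first. Lum, lumican, a proteoglycan that spaces collagen fibrils (chr10:97565128-97572703), was 81.9, 79.8 and 96.1 CPM in exercised females and 51.2, 32.9 and 44.4 CPM in exercised males. The difference was 1.00 (SE 0.13; adjusted p = 0.0061 by edgeR's quasi-likelihood test), and in sedentary hearts it was 0.73. Col14a1, a collagen that binds the surface of fibrils (chr15:55307750-55520803), had 17.9, 27.0 and 29.9 CPM in females and 9.69, 5.76 and 9.20 CPM in males. That was 3.03-fold higher in females (log2 difference 1.60, SE 0.21; adjusted p = 0.0077 by the same test), and 3.29-fold higher in sedentary females. The lowest female level of Col14a1 was still well above the highest male level.

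Adamtsl2 and Mfap4 belong to the microfibrils that carry elastin and bind latent growth factors. Adamtsl2 (chr2:27079379-27108981) was 45.9, 39.3 and 54.2 CPM in exercised females and 13.1, 16.1 and 21.8 CPM in exercised males, a difference of 1.45 (SE 0.19; adjusted p = 0.0083 by edgeR's quasi-likelihood test). Mfap4 (chr11:61485431-61488900) was 11.7, 14.3 and 17.3 CPM in females, against 6.55, 6.26 and 6.26 CPM in males whose levels barely differed, a difference of 1.18 (SE 0.17; adjusted p = 0.0083 by the same test). Both were also called in sedentary hearts, at 1.26 and 1.31.

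The matrix lists as a whole leaned to the female side. Of 26 tested collagen genes 25 lay above 0, with a median of 0.30 (0.19 without female exercised 3) and 1 past the test, Col14a1. The female and male levels did not overlap for 9 of the 26 with females above (34.6%), against 6.68% of all tested autosomal genes, and for 1 with females below, against 7.6%. Of 42 other matrix genes 34 lay above 0, with a median of 0.12, and 2 passed, Lum and Mfap4. The main fibril collagens showed wide replicates: Col3a1 was 172, 198 and 291 CPM in females and 144, 128 and 203 CPM in males, with overlap. Col6a2, a chain of the beaded filament collagen around cells, was 115, 126 and 145 CPM in females and 99.0, 107 and 101 CPM in males (difference 0.33, SE 0.08; adjusted p = 0.15 by edgeR's quasi-likelihood test).

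Of the 42 other matrix genes, 9 had all exercised females above all exercised males and 1 had all females below. Over all tested autosomal genes the shares were 6.68% and 7.6%. Fbln1, Loxl2, Postn and the collagen Col6a6 are matrix genes whose exercised groups did not overlap and that did not pass. Fbln1, an elastic fibre protein, was 112, 108 and 108 CPM in females and 91.2, 86.2 and 81.4 CPM in males (difference 0.34, SE 0.08; adjusted p = 0.14 by edgeR's quasi-likelihood test). Loxl2, an enzyme that cross-links collagen, was 36.5, 33.4 and 41.3 CPM in females and 26.4, 19.3 and 26.8 CPM in males, with a difference of 0.62 and the same adjusted p. Postn, a matricellular protein of activated fibroblasts, was 34.97, 36.1 and 36.2 CPM in females, which agree closely, and 27.7, 22.5 and 28.6 CPM in males. Col6a6, a filament collagen chain, was the 1 collagen on the male side, at 8.58, 9.44 and 9.04 CPM in females and 13.5, 13.5 and 14.1 CPM in males (difference -0.60, SE 0.11; adjusted p = 0.064 by edgeR's quasi-likelihood test). It is 1 of the 3 genes just outside the threshold on the male side, with Mal and Eef1a2. On the female side these were Smoc2, a calcium-binding matrix protein at 0.71, C1ra, and Col18a1, a basement membrane collagen at 0.57, with adjusted p of 0.065 to 0.074 by the same test.

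**Figure D2:**
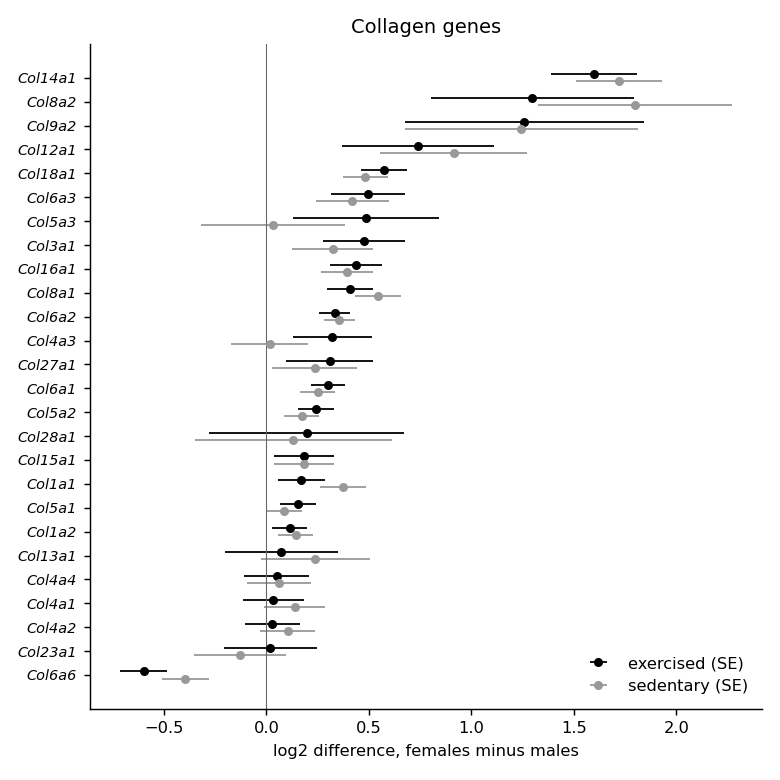
Log2 difference between females and males, with its SE, of the 26 tested collagen genes in exercised (black) and sedentary (grey) hearts, ordered by the exercised value. Col14a1 at the top is the one past the test in exercised hearts, and Col6a6 at the bottom is the one below 0 there.

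Fibroblast markers leaned the same way as the matrix genes. Of 13 tested markers 12 lay above 0, with a median of 0.29 (0.19 without male exercised 3), and 6 of the 13 are also in a matrix list, among them Lum, the only one past the test. The summed level of the 13 was 2910 to 3260 CPM in exercised females and 2230 to 2720 CPM in exercised males, with no overlap. By single markers, 5 of the 13 had all females above all males, against 6.68% of all tested autosomal genes. The 1 marker below 0, at -0.43, had all females below, against 7.6%. Pcolce, which speeds the cutting of procollagen, was 58.5, 63.4 and 63.0 CPM in females and 50.1, 42.0 and 44.5 CPM in males (difference 0.44, SE 0.09; adjusted p = 0.074 by edgeR's quasi-likelihood test). Gsn, gelsolin, which cuts actin filaments, was 1949, 1646 and 1626 CPM in females and 1501, 1238 and 1477 CPM in males. Gsn alone thus made up most of the summed level in each exercised library, and it did not pass (adjusted p = 0.26 by edgeR's quasi-likelihood test). The part of the fibroblast markers in the matrix result was not tested. Markers of the outer lining of the heart and of lung also summed higher in females, at 27.5 to 31.8 CPM against 20.6 to 22.2 CPM, and those of Schwann cells and nerve at 76.1 to 86.6 CPM against 63.3 to 67.6 CPM, the latter mostly Pmp22. Valve and cartilage markers summed to 23.1 to 33.1 CPM in females and 19.5 to 22.9 CPM in males, so these sums nearly met. Of their 7 tested members 6 lay above 0, but the only one past the test, Cnmd at -2.29, was higher in males. The part of these other marker lists was not tested either.

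**Figure D3:**
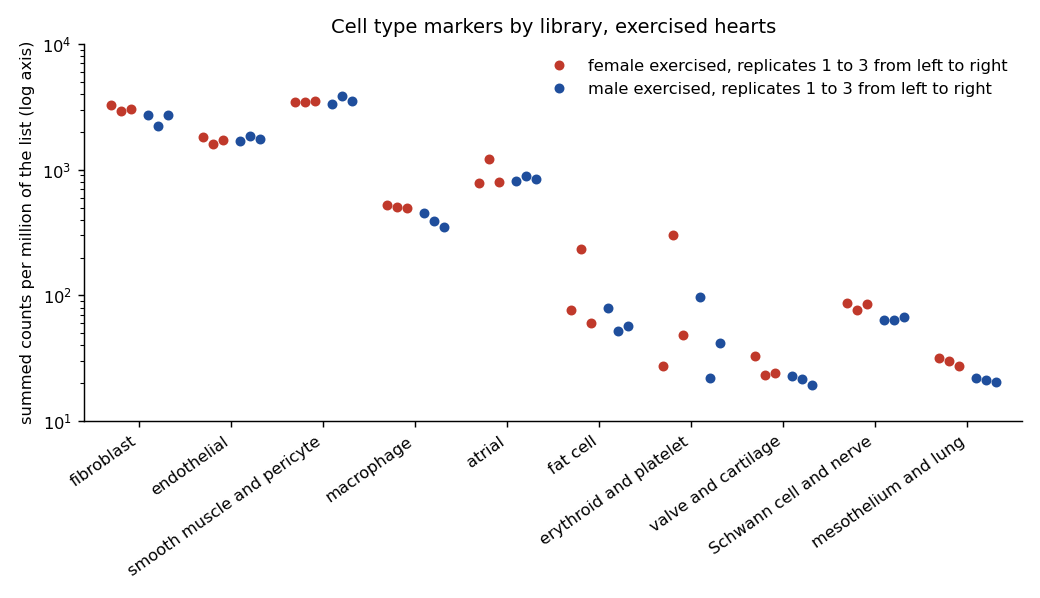
Summed CPM (log axis) of marker lists of 10 cell types or tissues in the 6 exercised libraries, with females in red and males in blue. Fibroblast, macrophage, valve, nerve and mesothelium sums are higher in all 3 female libraries, and female exercised 2 stands above the rest for atrial, fat cell and erythroid markers. The fibroblast sum is mostly Gsn. The valve sums nearly meet, at 23.1 CPM in the lowest female and 22.9 CPM in the highest male library.

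Serpinf1, pigment epithelium-derived factor, a secreted inhibitor of vessel growth (chr11:75409769-75422701), was 29.6, 29.5 and 24.9 CPM in exercised females and 17.9, 16.5 and 19.1 CPM in exercised males. The difference was 0.65 (SE 0.12; adjusted p = 0.043 by edgeR's quasi-likelihood test), against 0.43 in sedentary hearts, where it did not pass (adjusted p = 0.071 by the same test). Gli1, the transcription factor at the end of hedgehog signalling (chr10:127329882-127341974), was low, at 2.12, 2.72 and 2.11 CPM in females and 1.04, 0.63 and 0.72 CPM in males (difference 1.52, SE 0.27; adjusted p = 0.039 by the same test). In sedentary hearts its difference was 1.95. Gli2, a related factor, had a difference of 0.65 (SE 0.25; adjusted p = 0.40 by edgeR's quasi-likelihood test), a gene looked up after the call of Gli1 was seen.

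Tmem119, a membrane protein of bone-forming cells and of brain macrophages (chr5:113793729-113800516), was 6.16, 5.88 and 6.51 CPM in exercised females and 2.57, 1.84 and 2.85 CPM in exercised males (difference 1.35, SE 0.23; adjusted p = 0.029 by edgeR's quasi-likelihood test). Pmp22, a membrane protein of myelin and of other cells (chr11:63128982-63159547), was 66.1, 56.4 and 66.2 CPM in females and 45.4, 43.3 and 49.4 CPM in males, at the edge of the threshold (difference 0.45, SE 0.08; adjusted p = 0.0498 by the same test). Sox10, the Schwann cell transcription factor, was 1.54, 1.88 and 2.07 CPM in females and 2.57, 2.21 and 2.56 CPM in males, so that marker lay on the other side. Rpl3, a protein of the large ribosomal subunit (chr15:80077791-80091868), was 247, 225 and 199 CPM in females and 169, 159 and 159 CPM in males. Its difference was 0.47 (SE 0.08; adjusted p = 0.019 by edgeR's quasi-likelihood test). Of 32 tested cytosolic ribosomal protein genes 29 lay above 0, with a median of 0.07 and Rpl3 alone past the test. That median was 0.04 without female exercised 1, 0.11 without female exercised 3 and 0.10 without male exercised 1. Ribosomal protein genes have many near-identical copies, so these counts are uncertain.

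How firmly the 15 held differed. Calls that stood in each of 12 fits that left out 1 library numbered 6: C7, Hsd11b1, Tmem150c, Acsl6, Lum and Col14a1. Of these, C7, Hsd11b1 and Tmem150c also stood in all 13 other settings. Lum and Acsl6 lost their call with only the 6 exercised libraries in the fit, and Col14a1 lost it there, with atrial markers as a covariate and without the 3 libraries with atrial transcripts. Adamtsl2 lost its call without male exercised 2 and Mfap4 without male exercised 2 or 3, while the remaining 7 lost it in 4 to 11 of the 12. Among the other settings Adamtsl2 lost it with only the 6 exercised libraries in the fit. Mfap4 lost it with limma's voom and with atrial markers as a covariate. The count rose to 42 without male exercised 1, of which 10 were among the 15, and dropped to 8 without male exercised 3. When autosomal genes were fitted alone 9 passed, all among the 15. Tmem119, Gli1, Serpinf1, Pmp22, Cnmd and Sox12 lost their call in that fit. With only the 6 exercised libraries in the fit 6 genes passed, 5 of them among the 15, and without the 3 libraries with atrial transcripts 16 passed, 9 of them among the 15. The last setting was chosen after seeing the data. Exons of 5 of the 15 (Acsl6, Gli1, Mfap4, Rpl3 and Tmem150c) overlap another annotated gene over at most 5.31% of their length, and whether counting used strand is not given in the sources used here.

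The same contrast in sedentary hearts gave the background for training. There 336 autosomal genes passed (2.15%), 127 higher in females and 209 higher in males, and 25.1% did not overlap between the sexes. That count was 82 to 115 when 1 sedentary female library was left out, and 53 to 219 when 1 sedentary male library was. The setting without the 3 libraries with atrial transcripts takes away 2 of the 3 sedentary female libraries. With 1 library left in that group, its count cannot be read against the 336. All 15 genes of the exercised contrast lay on the same side in sedentary hearts, and 11 of them passed there, which is 73.3% of the 15 and 3.27% of the 336. The 4 that did not were Cnmd, Serpinf1, Pmp22 and Sox12. Of the 336, 324 (96.4%) had the same direction in exercised hearts, where their median difference, signed to the sedentary side, was 0.19 against an absolute median of 0.44 in sedentary hearts. The 336 were chosen by their sedentary values. The pairs of groups share no library. Across all tested autosomal genes 64% lay on the same side in both, with a Pearson r of 0.411 and a Spearman rho of 0.355, as a description across genes fitted in 1 model.

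The difference between the exercised and the sedentary sex difference passed for 0 autosomal genes (0%) by edgeR's quasi-likelihood test, and 743 had an unadjusted p under 0.05. DESeq2 called 9 and limma's voom 0. The smallest adjusted p was 0.906 by edgeR's quasi-likelihood test, for Vwa8, a mitochondrial ATPase-domain protein gene. Its level was 265, 258 and 274 CPM in exercised females and 307, 268 and 282 CPM in exercised males, against 237, 217 and 200 CPM in sedentary females and 341, 329 and 364 CPM in sedentary males. Fyco1, an adaptor of vesicle transport, had the next smallest p, at 277, 299 and 299 CPM in exercised females and 314, 302 and 301 CPM in exercised males, against 235 to 276 and 351 to 388 CPM in the sedentary groups. Vwa8 and Fyco1 passed in sedentary and not in exercised hearts, and the test of the change did not pass for either.

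**Figure D4:**
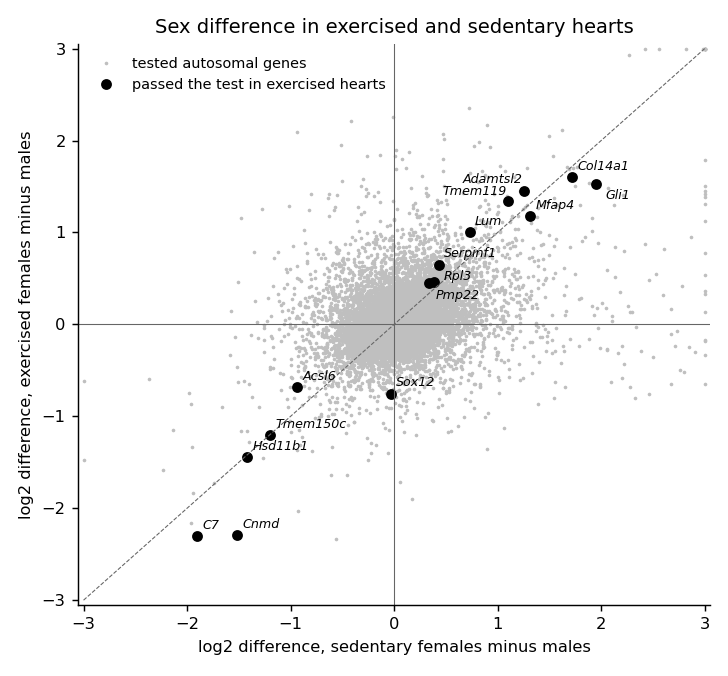
Log2 difference between females and males of each tested autosomal gene in sedentary (x axis) and exercised (y axis) hearts, with values beyond 3 drawn at the edge; the dashed line marks equal differences. The 15 genes that passed in exercised hearts (black) lie on the same side in both, and Sox12 lies at a sedentary value of -0.03.

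Genes of mitochondrial energy use lay on the male side by small steps, and none passed the test. Over 5 lists (oxidative phosphorylation, fatty acid oxidation, citric acid cycle, branched-chain amino acid and ketone use, and mitochondrial ribosomal proteins) 140 of 147 tested genes lay below 0, with a median of -0.10. In 57 of the 147 (38.8%) all females were below all males, against 7.6% of all tested autosomal genes, and in 1 they were above. All 46 nuclear genes of oxidative phosphorylation lay below 0, from -0.20 to -0.0023, with a median of -0.10, and 15 did not overlap. Their summed level was 38600, 38000 and 37800 CPM in exercised females and 41700, 41100 and 39400 CPM in exercised males. In sedentary hearts 32 of the 46 lay below 0. Without male exercised 1 the median of the fatty acid oxidation list went from -0.10 to -0.04. The genes of a list share libraries and scaling and are not independent.

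Single genes of these lists follow, most of them named for a small p within their list. Those given with a difference lie further below 0 than the median of -0.10 over the 5 lists. Acadm, which oxidises medium-chain fatty acids, was 1300, 1328 and 1347 CPM in exercised females and 1572, 1494 and 1580 CPM in exercised males (difference -0.23, SE 0.05; adjusted p = 0.15 by edgeR's quasi-likelihood test). Its sedentary difference of -0.44 passed. Ogdhl, a form of a citric acid cycle dehydrogenase, was 146, 139 and 153 CPM in females and 168, 221 and 213 CPM in males, with -0.46 (SE 0.10; adjusted p = 0.12 by the same test). Citrate synthase, Cs, which opens the cycle, was 1252, 1234 and 1234 CPM in females, close to each other, and 1323, 1430 and 1388 CPM in males, with -0.15. Bckdha, a subunit of the enzyme that commits branched-chain amino acids to breakdown, was 104, 110 and 111 CPM in females and 125, 137 and 133 CPM in males, with -0.28. Ndufa10, of respiratory complex I, was 529, 555 and 577 CPM in females and 616, 627 and 670 CPM in males, and Uqcrc1, of complex III, had a difference of -0.18. Cpt1b, which admits fatty acids to mitochondria, was 8.80 to 9.98 CPM in females and 10.3 to 12.5 CPM in males. Overlap of its exons with another gene was not checked, so this level is uncertain.

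Pdk4, Ucp3 and Ppargc1a, panel genes of fuel choice, overlapped between the exercised sexes. Pdk4, which holds glucose carbon back from the citric acid cycle, was 654, 259 and 709 CPM in exercised females and 697, 576 and 413 CPM in exercised males. Ucp3, an uncoupling protein, was 40.6, 27.4 and 60.6 CPM in females and 117, 30.0 and 27.4 CPM in males. Ppargc1a, a coactivator of mitochondrial genes, was 80.4 to 95.8 CPM in females and 67.2 to 105 CPM in males.

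Genes of contraction and calcium handling lay mostly below 0. Of 27 sarcomere and Z-disc genes 21 lay below 0 (median -0.05), and of 32 calcium handling genes 22 did (median -0.05), with none past the test. The exercised groups did not overlap for 3 sarcomere genes, all with females below, and for 7 calcium handling genes, 2 with females above and 5 with females below, where 14.3% of all tested autosomal genes did not overlap. The sarcomere median was -0.01 without male exercised 2 and -0.12 without male exercised 1, and the calcium handling median was -0.03 without male exercised 3. The 3 genes that follow are among those without overlap. Mybpc3, a thick filament regulator, was 3770, 4272 and 4297 CPM in females and 4536, 5847 and 4988 CPM in males (difference -0.32, SE 0.09; adjusted p = 0.23 by edgeR's quasi-likelihood test). Ryr2, the calcium release channel, was 1072, 1191 and 990 CPM in females and 1325, 1252 and 1241 CPM in males (difference -0.23, SE 0.10; adjusted p = 0.46 by the same test). Camk2b, a calcium-dependent kinase subunit, was 9.70, 8.24 and 9.15 CPM in females and 11.2, 17.4 and 13.7 CPM in males, with -0.64.

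Ion channel genes were split, with 15 of 35 potassium channel genes above 0 and 20 below and none past the test, and a median whose sign depended on the library left out. Kcne1, a potassium channel subunit, was 12.6, 8.32 and 4.03 CPM in females and 3.34, 1.85 and 2.43 CPM in males (difference 1.70, SE 0.38; adjusted p = 0.15 by edgeR's quasi-likelihood test). The female libraries of Kcne1 spread over 3-fold. Abcc8, the regulatory subunit of an ATP-sensitive channel, was 53.7, 50.8 and 56.3 CPM in females and 38.7, 44.9 and 38.8 CPM in males (difference 0.39, SE 0.08; adjusted p = 0.079 by the same test). Kcnj14, an inward rectifier, was 0.625, 0.880 and 0.904 CPM in females and 2.01, 1.44 and 1.58 CPM in males, with -1.06.

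Acta2, Cnn1 and Myh11, genes of the smooth muscle of vessels, lay higher in each exercised female library than in any male one, without passing. Of all tested autosomal genes 6.68% had all females above all males. Acta2 did pass in 5 of 13 other settings, and in 1 of 12 fits that left out 1 library. Acta2, which encodes an actin, was 164, 97.3 and 117 CPM in exercised females and 50.9, 38.3 and 46.3 CPM in exercised males (difference 1.48, SE 0.25; adjusted p = 0.080 by edgeR's quasi-likelihood test). Sedentary levels of Acta2 overlapped, at 52.2 to 95.4 CPM in females and 64.3 to 78.6 CPM in males. The test of the change gave 1.32 (SE 0.35; adjusted p = 0.93 by the same test). Cnn1, calponin, was 4.08, 2.44 and 2.33 CPM in females and 0.965, 1.26 and 1.07 CPM in males, and Myh11, a myosin, was 51.7, 38.95 and 43.8 CPM against 33.2, 23.8 and 23.7 CPM. Of the 14 smooth muscle and pericyte markers 7 lay above 0 and 7 below, with a median of 0.02.

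Load-related genes were led by single libraries. Male exercised 2 had the highest Nppb, a natriuretic peptide of stretched heart muscle, at 763 CPM, against 276, 385 and 359 CPM in the females and 199 and 488 CPM in the other males. It also had the highest Ankrd1, a stretch-responsive nuclear factor, at 1766 CPM, and the highest Bag3, a co-chaperone, at 397 CPM, against 230 to 285 CPM in the rest. Of 31 heat shock and endoplasmic reticulum stress genes 27 lay below 0, with a median of -0.18, none past the test, and the groups overlapped for each of the 31. Without male exercised 2 that median was -0.02, and the median of the cardiac stress list turned from -0.08 to 0.28. Myh7, the slow myosin, was 814, 936 and 684 CPM in females and 602, 1167 and 684 CPM in males.

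Interferon-stimulated genes and macrophage markers lay mostly above 0, and antigen presentation genes were split. Of 34 tested interferon-stimulated genes 32 lay above 0, with a median of 0.30 (0.18 without male exercised 1), none past the test, and 9 (26.5%) had all females above all males, against 6.68% of all tested autosomal genes. In sedentary hearts 34 of 34 lay above 0. Of 21 antigen presentation genes 13 lay above and 8 below 0, with a median of 0.08, which turned to -0.02 without male exercised 1 and was 0.22 without male exercised 2. Ifi27l2a, an interferon-induced mitochondrial protein, was 12.5, 19.6 and 12.01 CPM in females and 7.36, 4.41 and 6.52 CPM in males (difference 1.26, SE 0.25; adjusted p = 0.11 by edgeR's quasi-likelihood test). Irf7, which drives the interferon response, was 13.2, 14.2 and 13.6 CPM in females and 7.32, 12.5 and 8.65 CPM in males (difference 0.53, SE 0.16; adjusted p = 0.26 by the same test). Oasl2, an antiviral protein, had 0.57. Macrophage markers summed to 497 to 525 CPM in exercised females and 351 to 455 CPM in exercised males, 15 of 16 lay above 0, and their part in the interferon values was not tested. Lyve1, a marker of resident macrophages and lymph vessels, was 54.0, 35.2 and 39.9 CPM in females and 28.8, 19.98 and 29.3 CPM in males, with 0.72. Ccl11, the eosinophil attractant, went the other way, at 2.83, 2.44 and 3.31 CPM in females and 10.3, 6.53 and 4.09 CPM in males (difference -1.28, SE 0.31; adjusted p = 0.17 by edgeR's quasi-likelihood test).

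**Figure D5:**
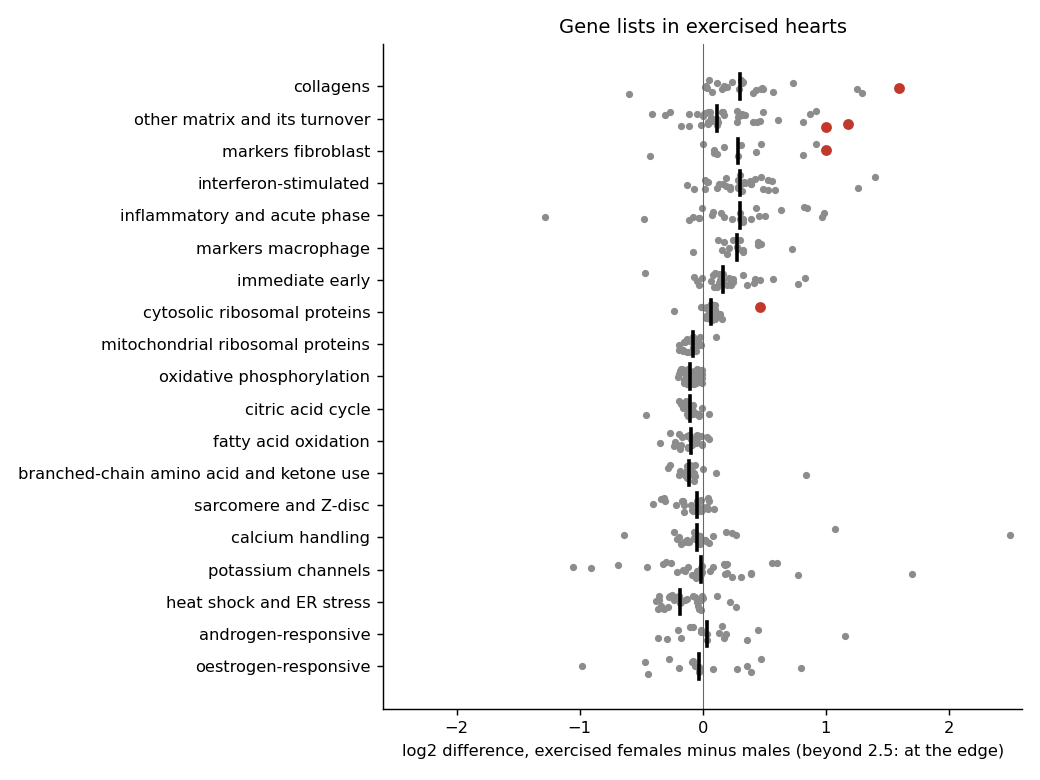
Log2 difference between exercised females and males of the tested members of 19 gene lists; each point is a gene, red points passed the test and black bars are list medians. Collagen, interferon and macrophage medians lie near 0.3, and the medians of the mitochondrial lists sit just below 0.

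Immediate early genes respond within minutes to handling and load. Their summed level was 11200 to 12700 CPM in exercised females and spread more widely in exercised males, at 10200, 14000 and 7400 CPM. Fos was 1250, 1144 and 1208 CPM in exercised females and 1076, 1393 and 630 CPM in exercised males. The list had 25 of 30 above 0 with a median of 0.16, which was -0.04 without male exercised 3 and 0.48 without male exercised 2. Dbp, an output of the circadian clock, was 36.9, 82.4 and 16.6 CPM in females and 98.4, 50.7 and 27.2 CPM in males, and the clock activator Arntl was 18.1, 6.76 and 21.5 CPM against 3.90, 12.6 and 18.02 CPM. Within each sex, the library with the highest Dbp had the lowest Arntl. The time of day at which hearts were taken is not given in the sources used here.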

How the data were processed

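Bulk heart RNA was sequenced in 12 libraries, and the authors deposited raw counts of reads per gene, made, per the submitters' processing notes, with Trimmomatic 0.36, STAR 2.5.2b and featureCounts of Subread 1.5.2 on GRCm38. The sources used here give neither the annotation release nor the strand setting. Of 55401 identifiers, 54349 matched the GENCODE annotation of GRCm38 with version and 792 without it. From the counts, genes were filtered with filterByExpr and scaled by trimmed mean of M-values, and 1 model of 4 group means was fitted to all 12 libraries (8 residual degrees of freedom) with the robust quasi-likelihood test of edgeR 4.0.16 in R 4.3.3. P-values were adjusted by Benjamini-Hochberg over all 16213 tested genes, and only autosomal rows are printed. Pairs of libraries within a group differed by more than sampling noise, with a chi-square per degree of freedom of 9.37 to 34.7. The members and the 46 gene lists were chosen with earlier results of these data known. The rule for named genes took, on each side, up to 15 called genes with the smallest p, up to 4 members of smallest p per list, a panel of 34, the 3 genes just outside the threshold per side and the smallest p of the change; the text names a part of these. Alternatives were other scalings, filters, DESeq2 1.42.0, voom of limma 3.58.1, 1 surrogate variable of sva 3.50.0, other sets of libraries and each library left out.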

Additional observations from a re-analysis of the deposited data

Results flagged for a closer look

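The exercised female libraries held 41, 26 and 41 counts of 4 Y-linked genes, 108 in all, against 4, 3 and 11 in the sedentary female libraries. Scaled to library size, the exercised female level was 0.765% of that in the exercised males. These rows are outside the autosomal comparison. The 37 mitochondrial rows held 27.3% of the counts in female sedentary 2 and none in the other 11 libraries, so no mitochondrial transcript could be compared.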

How the results depend on the processing

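No paired analysis was possible because the labels give no replicate number that 2 groups have in common. None of the log2 differences followed for 85 genes changed sign under any setting. Most of the 85 were named for a small p in these data, so a steady sign was likely from the start. Of the 70 followed genes that did not pass in the main fit, 43 passed in some other setting, among them no filter and DESeq2. Some genes named above, such as Pdk4, Ucp3 and Dbp, were not followed. The count of 15 autosomal genes in exercised hearts became 501 with no filter, 153 with DESeq2, 27 at an adjusted p under 0.1, 6 with only the 6 libraries compared and 9 when autosomal genes were fitted alone, and 8 to 42 when 1 library was left out. All 15 were among those called with no filter and by DESeq2. The cause of the rises was not tested. In the sedentary contrast, the setting without the 3 libraries with atrial transcripts leaves 1 sedentary female library. Its count there has no spread among sedentary females behind it and cannot be read against the main count. For the sedentary contrast the count of 336 became 1231 with no filter, 830 with DESeq2, 95 with 1 surrogate variable, 783 at an adjusted p under 0.1, 78 with atrial markers as a covariate, 7 without the 3 libraries with atrial transcripts, and 53 to 440 with 1 library left out. For the change between conditions the count of 0 became 166 with no filter and 9 with DESeq2, and 0 to 1 with 1 library left out, the 1 arising without female exercised 3. The causes of these moves were not tested. Other scalings gave 14 and 16 genes in exercised hearts and moved the median of all genes by less than 0.02. List medians of collagens (0.19 to 0.38), interferon-stimulated genes (0.18 to 0.42) and oxidative phosphorylation (-0.11 to -0.08) did not turn in 16 other settings. Under the atrial covariate the medians of fat cell, valve and erythroid markers turned to -0.09, -0.29 and -1.98. The precision is set by 3 libraries a group and a median SE of 0.14.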
